A study of Mus musculus with 12 samples.

Results

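The mitochondrial solute carriers are a family of small membrane proteins that move nucleotides, phosphate, carboxylic acids, amino acids, cofactors and iron across the inner mitochondrial membrane. Its members here are the genes whose mouse symbol is Slc25a followed by a number, together with the uncoupling protein genes Ucp2 and Ucp3. The annotation holds 49 such symbols, and the deposited table lists 40 of them among its 14801 genes. The 9 others, Slc25a2, Slc25a21, Slc25a31, Slc25a35, Slc25a41, Slc25a43, Slc25a48, Slc25a54 and Ucp3, have no row there. All 40 listed members passed the filter on low values and were tested.

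Messenger RNA was sequenced from primary cerebrocortical cells of wild-type mouse fetuses taken on gestational day 17.5. The cortex of each of 6 fetuses supplied a pair of cultures, which grew for 9 days and then spent 24 h without the B27 supplement. One culture of the pair then received 10 nM triiodothyronine (T3), the receptor-binding thyroid hormone, for 24 h, and its partner was kept alongside without T3. The 2 groups therefore hold 6 cultures each and share genotype, age, medium and B27 withdrawal.

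The carriers are encoded in the nucleus. A typical carrier of the inner membrane folds around a central substrate site that opens in turn to the cytosol and to the matrix. ADP/ATP and phosphate carriers feed ATP synthase, while the aspartate/glutamate and oxoglutarate/malate carriers run the malate-aspartate shuttle, the main route of cytosolic reducing equivalents into neuronal mitochondria. Uncoupling proteins form another branch of the family, and thyroid hormones are known regulators of mitochondrial metabolism in many tissues.

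Library depth ran from 5272092 to 8136928 reads without T3 and from 7460586 to 10837895 with T3, and the T3 library was the deeper of the pair in 6 of 6 mice (exact sign-flip permutation test, two-sided, p = 0.03125). Values are TMM-normalized CPM, reads scaled to a common library size. The T3 target genes Hr and Klf9 rose in 6 of 6 mice, by 3.00 and 1.46 on the log2 scale. Markers of neurons summed to 6788 to 9208 CPM per culture and those of astrocytes to 824.7 to 3235, whereas the 5 listed of 8 microglial markers summed to at most 10.2 and P2ry12, Tmem119 and Itgam are not listed. The second-highest value of every listed gene was at least 1.002 CPM. A gene high in a single culture could therefore lack a row, and an unlisted gene was not shown to be absent. The no-T3 culture of mouse 4 stood apart, with 1295 CPM over the 4 listed of 12 markers of striated muscle and heart against at most 64.3 in the other cultures without T3, and 544.6 CPM over 9 listed of 10 mural and fibroblast markers against at most 201.5. The count of called carriers is therefore also given without mouse 4.

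With T3, 2 of the 40 carriers rose, Ucp2 and Slc25a5, and none fell. The uncoupling protein gene Ucp2 stood at 9.35 ± 5.66 CPM without T3 and 15.9 ± 8.20 with T3 (SD, n = 6). Its mean change within the pairs, taken on log2(CPM + 0.5), was 1.75-fold. Slc25a5, the widespread ADP/ATP carrier also called Ant2, rose 1.17-fold, from 117.2 ± 6.94 to 137.5 ± 5.41 CPM (SD, n = 6). Calls rest on an adjusted p under 0.05 from limma, with the mouse as a block and Benjamini-Hochberg adjustment over all 13663 genes tested, of which 5.52% were called, 3.37% higher and 2.14% lower. The share of called carriers, 5% of 40, lay near that background. Leaving out mouse 4 also gave 2 called carriers, against 4.17% of all genes, and edgeR and DESeq2 gave 2 each, against 5.72% and 4.13%. At an unadjusted p under 0.05 there were 7 carriers (17.5%), and the share of all genes was 17.5% too.

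The promoters of both called genes are shown here because these are the carriers that T3 changed. They are the bases just upstream of the RefSeq start on GRCm38.p6, on the plus strand and 5′ to 3′, and the Ucp2 stretch ends where the first GENCODE transcript begins. Capitals mark a GC box, GGGCGG or its reverse complement, the only one of the motifs searched that either stretch held. The Ucp2 stretch is chr7:100493108-100493336 and the Slc25a5 stretch is chrX:36795347-36795596.
Ucp2: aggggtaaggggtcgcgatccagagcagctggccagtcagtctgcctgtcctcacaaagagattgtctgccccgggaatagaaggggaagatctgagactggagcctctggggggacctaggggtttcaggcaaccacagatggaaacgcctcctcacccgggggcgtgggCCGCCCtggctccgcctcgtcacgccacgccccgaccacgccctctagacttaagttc
Slc25a5: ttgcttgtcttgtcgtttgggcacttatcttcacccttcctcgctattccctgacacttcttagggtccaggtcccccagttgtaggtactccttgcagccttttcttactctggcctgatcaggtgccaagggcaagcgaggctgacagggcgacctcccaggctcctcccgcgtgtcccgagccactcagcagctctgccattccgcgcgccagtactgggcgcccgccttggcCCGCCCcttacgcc
GC content was 63.3% over the 229 bases of the first and 61.6% over the 250 bases of the second.

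RefSeq promoters were matched for 32 of the 40 carriers, with 41 start sites among them, and the 250 bases before each start were searched on both strands. The half-site bound by thyroid hormone receptors, AGGTCA, lay in 4 of the 41 windows (9.76%), those of Slc25a34, Slc25a39, Slc25a45 and Slc25a47. Among all 32851 RefSeq promoters 14.0% held it, and among those of tested genes 10.1%. No carrier window held a direct repeat of AGGTCA with 4 bases of any kind between the copies, which contains the half-site. That repeat was found in 5 of all promoters and in 0% of the 12947 of tested genes. The GC box lay in 75.6% of the carrier windows, in 32.7% of all promoters and in 58.3% of those of tested genes. None of the 4 carriers with an AGGTCA half-site in its window passed the test for T3. Since only 2 of all 40 carriers (5%) passed, this count cannot relate the half-site to T3.

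Without T3 the carriers spanned a wide range of levels, compared here as CPM per kilobase of annotated exon. The length is that of all annotated exons of a gene together, so the order, ranks and shares depend on the annotation. Slc25a3 counted 5550 bases and Slc25a5 1646. In CPM, Slc25a4 stood at 690.4 without T3, Slc25a3 at 335.2 and Slc25a5 at 117.2, another order than per kilobase. Slc25a4, the ADP/ATP carrier Ant1 of excitable tissue, stood far above the rest at 293.4 ± 18.7 CPM per kilobase (SD, n = 6). It made up 35.33% ± 1.51 of the summed per-kilobase level of the 40 genes without T3 and 35.25% ± 1.18 with T3. This share was higher with T3 in 3 mice and lower in 3. Slc25a5 followed at 71.2 ± 4.22, the phosphate carrier gene Slc25a3 at 60.4 ± 3.78 and Slc25a23, a calcium-regulated ATP-Mg/phosphate carrier, at 53.8 ± 2.65. Slc25a11, the oxoglutarate/malate carrier, came next at 47.4 ± 2.47 and the citrate carrier gene Slc25a1 after it at 39.2 ± 1.89. The glutamate carrier gene Slc25a22 (30.4 ± 2.96) and Slc25a44, a carrier of branched-chain amino acids (29.4 ± 2.27), differed by less than the spread between cultures. Ucp2 ranked 33 of 40 with 1.34 ± 0.809 CPM per kilobase. At the lower end were Slc25a24, Slc25a47, Slc25a34 and Slc25a45, each between 0.566 and 0.740.

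**Figure D1:**
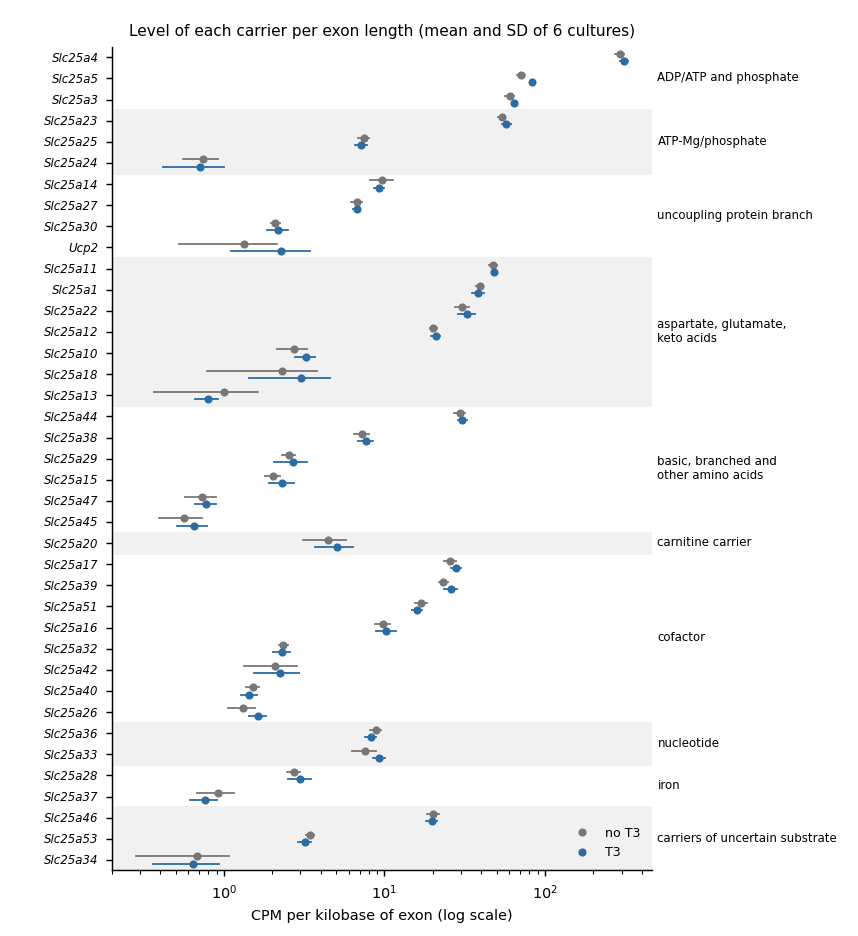
Mean level of 39 of the carriers in CPM per kilobase of exon (log axis), grouped by substrate, with lines for the SD over 6 cultures without T3 (grey) or with T3 (blue). Slc25a4 lies at 293.4 without T3 and Slc25a45 at 0.566, and for most genes the grey and blue lines overlap.

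Of the carriers that serve oxidative phosphorylation, 1 of 3 changed. Slc25a5 (ENSMUSG00000016319; chromosome X from 36795651 to 36798807 of GRCm38) measured 111.2, 115.4 and 130.6 CPM (lowest, median and highest) without T3 and 129.7, 138.5 and 144.6 with T3. The groups overlapped only through the no-T3 culture of mouse 4, at 130.6, and the culture of mouse 2 with T3, at 129.7. The log2 change was 0.23 (SE 0.050, adjusted p = 0.00703), it was positive in 6 of 6 mice, from 0.10 in mouse 4 to 0.32 in mouse 1, and without mouse 4 it was 0.26 (adjusted p = 0.0103). Of the 75-base stretches of its transcripts, as long as 1 read, 19.8% also occur in 6 annotated processed pseudogenes, so its count is uncertain to that extent. The table lists 2 of these copies. Gm5560 went from 15.55 ± 2.10 to 18.2 ± 1.225 CPM, with a log2 difference of 0.23 that did not pass (adjusted p = 0.127), and Gm5529 stood near 2 CPM.

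Slc25a4 measured 626.2, 706.6 and 741.6 CPM without T3 and 683.5, 720.3 and 781.5 with T3. The groups overlapped over most of their range, and the log2 difference of 0.080 (95% interval -0.013 to 0.17, adjusted p = 0.385) did not pass, with T3 higher in 5 of 6 mice. Slc25a3, which imports the phosphate used for ATP, had a difference of the same size, 0.080 (interval -0.018 to 0.18, adjusted p = 0.412), and stood at 335.2 ± 21.0 and 354 ± 8.26 CPM. Of the per-kilobase level of the 2 ADP/ATP carriers, Slc25a5 held 19.6% ± 1.13 without T3 and 21.3% ± 1.37 with T3 (n = 6). Its share was higher with T3 in 6 of 6 mice, which follows from the changes already given.

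None of the 3 ATP-Mg/phosphate carriers, which adjust the adenine nucleotide pool of the matrix, passed the test. Slc25a23 measured 267.2, 288 and 300.9 CPM without T3 and 270.4, 313 and 319.9 with T3. Its log2 difference was 0.095 (adjusted p = 0.366), with 4 of 6 mice higher. Slc25a25 (-0.061) and the little expressed Slc25a24 (-0.10, 13 to 34 reads per library) had differences below 0. Slc25a23 took 86.8% ± 0.283 of the per-kilobase level of the 3 genes without T3 and 87.99% ± 0.570 with T3, and more with T3 in 6 of 6 mice. No test was made of that share.

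In the uncoupling branch Ucp2 changed and the 3 others did not pass. Ucp2 (ENSMUSG00000033685; chromosome 7 from 100493337 to 100502020) measured 13.9, 4.69, 5.08, 16.7, 12.4 and 3.34 CPM in mice 1 to 6 without T3. With T3 the same mice had 24.3, 9.71, 11.03, 16.6, 26.97 and 6.92 CPM. The groups overlapped widely, since the mice ranged from 3.34 to 16.7 CPM without T3, yet within the pairs the level roughly doubled in 5 mice and stayed level in mouse 4. The log2 changes of mice 1, 2, 3, 5 and 6 lay between 0.79 and 1.09, and that of mouse 4 was -0.009. Across all pairs the log2 change was 0.81 (SE 0.127, adjusted p = 0.000353), and without mouse 4 it was 0.97 (adjusted p = 2.06e-05). The pairing carried the call, since limma without the mouse as a block gave an adjusted p of 0.612, in a fit that called 1.3% of all genes. Dnajb13, on the opposite strand, overlaps 4.36% of the Ucp2 exons, and the library kit does not keep strand.

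Of the 3 other carriers of this branch, Slc25a27 and Slc25a14 are known from brain. Slc25a27, also called UCP4, had 26.5 ± 1.94 CPM without T3 and 26.5 ± 1.21 with T3, with an interval of the log2 difference from -0.15 to 0.15. Slc25a14, also called UCP5, had a difference of -0.048 (interval -0.23 to 0.13), and Slc25a30, its close relative, 0.044 (interval -0.19 to 0.28). Changes of the size seen in Ucp2 lay outside all 3 of these intervals.

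**Figure D2:**
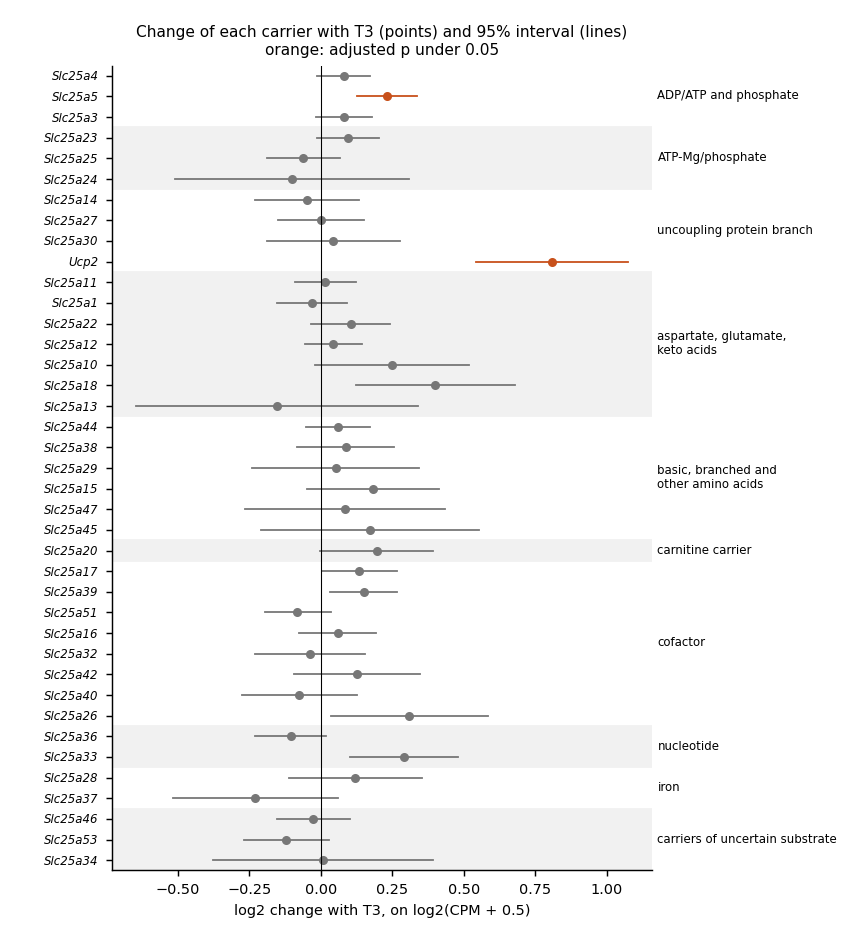
Log2 change with T3 (points) of 39 of the carriers grouped by substrate, with 95% intervals (lines) from the limma fit with the mouse as a block. Ucp2 at 0.81 and Slc25a5 at 0.23 are orange because their adjusted p was under 0.05, and the other 37 are grey.

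Bulk RNA does not separate a change in the number of cells of a type from a change in RNA per cell. Markers of astrocytes moved in the same direction as Ucp2: the 9 listed of 10 astrocyte markers summed to 824.7 to 2769 CPM without T3 and 1242 to 3235 with T3, higher in 6 of 6 mice, with 4 of 8 tested markers called higher and Gjb6 not listed. The sums of the 10 oligodendrocyte lineage markers ranged from 351 to 504.4 CPM without T3 and from 453.3 to 567.8 with T3, also higher in 6 of 6 mice. In mouse 4 the astrocyte sum was 1340 CPM without T3 and 1629 with T3, and Ucp2 stood at 16.7 and 16.6. The no-T3 culture of that mouse is the one with the muscle and heart markers. The part of any of these markers in the values of Ucp2 was not tested.

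The carriers of aspartate, glutamate and keto acids link the cytosolic and mitochondrial pools of these metabolites, and none of 7 passed the test. Slc25a12, the aspartate/glutamate carrier aralar of neurons, measured 137.2, 149.9 and 155.6 CPM without T3 and 137.9, 155 and 162.2 with T3. Its log2 difference of 0.044 had an interval from -0.056 to 0.14. Slc25a11, its partner in the malate-aspartate shuttle, had a difference of 0.015 (interval -0.091 to 0.12). Slc25a22 stood at 182.3 ± 17.8 and 196.6 ± 24.0 CPM (0.10, adjusted p = 0.459), the citrate carrier gene Slc25a1 had a difference of -0.030, and the dicarboxylate carrier gene Slc25a10 one of 0.25 (adjusted p = 0.331).

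Slc25a18, a glutamate carrier known from astrocytes, measured 9.83, 3.22, 2.82, 2.78, 5.53 and 2.18 CPM in mice 1 to 6 without T3. With T3 it measured 11.2, 4.60, 3.97, 4.58, 7.38 and 2.87, so that each culture with T3 lay above its partner while the groups overlapped. Its log2 difference was 0.40, but with 15 to 86 reads per library the adjusted p was 0.0903. Slc25a13, the aspartate/glutamate carrier citrin, measured 8.35 CPM in the no-T3 culture of mouse 4 and 1.69 to 4.05 in the other 5. Its log2 difference was -0.15 with all mice (adjusted p = 0.807) and 0.15 without mouse 4 (adjusted p = 0.748), and the culture concerned is the one with the muscle and heart markers, whose part in this value was not tested.

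None of the 6 members grouped here under basic, branched-chain and other amino acids passed, although all 6 had a log2 difference above 0. The substrate of Slc25a47 in this group is not settled. The differences ran from 0.052 for Slc25a29, a carrier of basic amino acids, to 0.18 for the ornithine carrier gene Slc25a15, which stood at 11.3 ± 1.20 and 13.01 ± 2.30 CPM (adjusted p = 0.441). Slc25a44 had a difference of 0.059 (interval -0.053 to 0.17). Slc25a38, which supplies glycine for heme synthesis, had one of 0.087 (interval -0.083 to 0.26). Slc25a45 and Slc25a47, with at most 26 reads per library, had differences of 0.17 and 0.084. The sign for Slc25a29 turned without mouse 3 or mouse 6 (-0.032 and -0.016). The carnitine/acylcarnitine carrier gene Slc25a20, which admits long-chain fatty acids for oxidation, measured 12.5, 20.9 and 30.6 CPM without T3 and 18.8, 22.3 and 36.8 with T3. Its groups overlapped, and the difference of 0.20 did not pass (adjusted p = 0.292).

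Of 9 cofactor carriers none passed, and 6 had a difference above 0. Slc25a39, a glutathione carrier, measured 56.5, 65.6 and 68.5 CPM without T3 and 62.8, 72.2 and 78.1 with T3. It was higher in 6 of 6 mice, yet its log2 difference of 0.15 had an adjusted p of 0.142. Its relative Slc25a40 had a difference of -0.075 (interval -0.28 to 0.13). The S-adenosylmethionine carrier gene Slc25a26 (0.31, adjusted p = 0.213) and Slc25a17, a carrier of cofactors in peroxisomes (0.13, adjusted p = 0.264), were higher in 5 of 6 mice. The coenzyme A carrier gene Slc25a42 (0.13), the folate carrier gene Slc25a32 (-0.039) and the NAD carrier gene Slc25a51 (-0.082) had adjusted p from 0.503 to 0.885, and that of Slc25a16, with a difference of 0.059, was 0.714.

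The 2 pyrimidine nucleotide carriers had differences of opposite sign. Slc25a33 measured 13.1, 14.2, 17.65, 11.5, 17 and 12.8 CPM in mice 1 to 6 without T3, and 17.9, 17.5, 16.9, 16.25, 20.3 and 16.3 with T3. It was higher in every pair but that of mouse 3, and its log2 difference was 0.29 (limma, adjusted p = 0.0670). Without mouse 3 it passed, at 0.36 (adjusted p = 0.0476), in a fit that called 3.35% of all genes. An antisense gene, Gm13068, overlaps 14.9% of the Slc25a33 exons and its reads could not be separated. Slc25a36 was lower with T3 in 5 of 6 mice, at 84.9 ± 6.62 and 78.9 ± 6.40 CPM, with a difference of -0.11 (adjusted p = 0.394). Slc25a33 held 46.05% ± 4.73 of the per-kilobase level of the pair without T3 and 53.1% ± 2.625 with T3, and more with T3 in 6 of 6 mice. This share was not tested.

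The iron carriers, known as mitoferrins, also had differences of opposite sign, and neither passed. Slc25a28, mitoferrin 2, had one of 0.12 (interval -0.11 to 0.35) and Slc25a37, mitoferrin 1, one of -0.23 (interval -0.52 to 0.060). Slc25a37 took 24.9% ± 4.04 of their per-kilobase level without T3 and 20.2% ± 1.49 with T3, and less in 6 of 6 mice. Slc25a37 had 30 to 62 reads per library, and this share was not tested. Of the shares not given above, that of Slc25a18 beside Slc25a22 was higher with T3 in 6 of 6 mice. The share of Slc25a13 beside Slc25a12 was higher in 3 mice and lower in 3, and that of Ucp2 in its branch was higher in 5. Of the 3 remaining members, Slc25a46, an outer-membrane protein linked to mitochondrial fission, differed by -0.026 (interval -0.15 to 0.10), Slc25a53 by -0.12 and Slc25a34 by 0.006. Slc25a34 had as few as 4 reads in a library and an interval from -0.38 to 0.39.

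**Figure D3:**
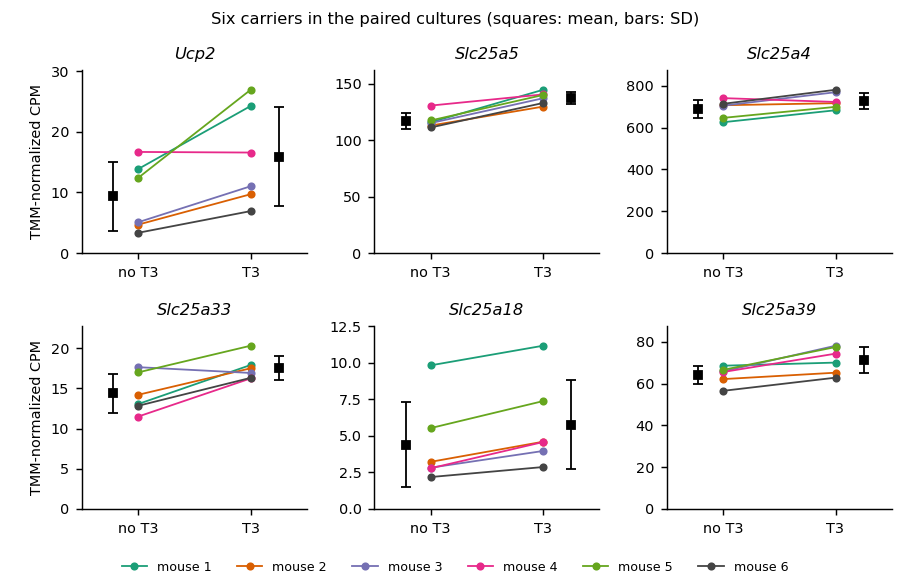
TMM-normalized CPM of 6 carriers in the paired cultures, with 1 line per mouse and squares with bars for the mean and SD of 6 cultures. Ucp2 rises in every mouse but mouse 4 (16.7 and 16.6 CPM), Slc25a5 rises in every mouse, and the lines of Slc25a18 lie far apart between mice.

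Small differences above 0 were common in the family. Of the 40 carriers 28 (70%) had a log2 difference above 0, against 51.0% of all genes tested, and their median was 0.070 against 0.003. Of the 212 tested genes in 11 lists of neighbouring mitochondrial genes, pooled, 72.2% lay above 0, with a median of 0.061. The trait was not shared by every list. Other inner-membrane transport (14 above 0 and 12 below) and mitochondrial biogenesis and dynamics (10 and 9) each had a median of 0.004, near that of all genes. In the remaining lists the medians ran from 0.045 to 0.113. The number of carriers above 0 stayed between 26 and 28 over the alternative settings. The sum over the 40 genes was 2858 ± 63.2 CPM without T3 and 2999 ± 63.5 with T3 (n = 6), and was higher with T3 in 6 of 6 mice. That sum weighs the abundant carriers most, such as Slc25a4 at 690.4 and 729.2 CPM, and says little about the others. Single carriers that were higher in 6 of 6 mice were Slc25a5, Slc25a18 and Slc25a39, 7.50% of the family against 5.79% of all genes tested and 9.91% of those 212 genes. No carrier was lower in 6 of 6 mice, as 4.98% of all genes were.

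Some carriers differed widely between mice. The SD of the 6 mouse means on the log2 scale was 0.81 for Ucp2, 0.68 for Slc25a18, 0.62 for Slc25a34, 0.49 for Slc25a42 and 0.37 for Slc25a20, beside T3 differences of 0.81, 0.40, 0.006, 0.13 and 0.20 in the same order. It was 0.049 for Slc25a11 and 0.053 for Slc25a23. In the cultures without T3, mouse 6 had the lowest value of all 5 of these variable genes, such as 5.78 CPM of Slc25a42, and mouse 1 had the highest of Slc25a18, Slc25a34, Slc25a42 and Slc25a20. Slc25a42 measured 18.0 CPM in mouse 1 and 17 in mouse 5, and from 10.2 to 12.3 in mice 2, 3 and 4. The summed astrocyte markers of the same cultures were 2769 CPM in mouse 1, 2230 in mouse 5, 1340 to 1523 in mice 2, 3 and 4, and 824.7 in mouse 6. Neuron markers were lowest in mouse 1 (7275 CPM) and highest in mouse 6 (9208 CPM). The part of these marker levels in the spread of the carriers was not tested.

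**Figure D4:**
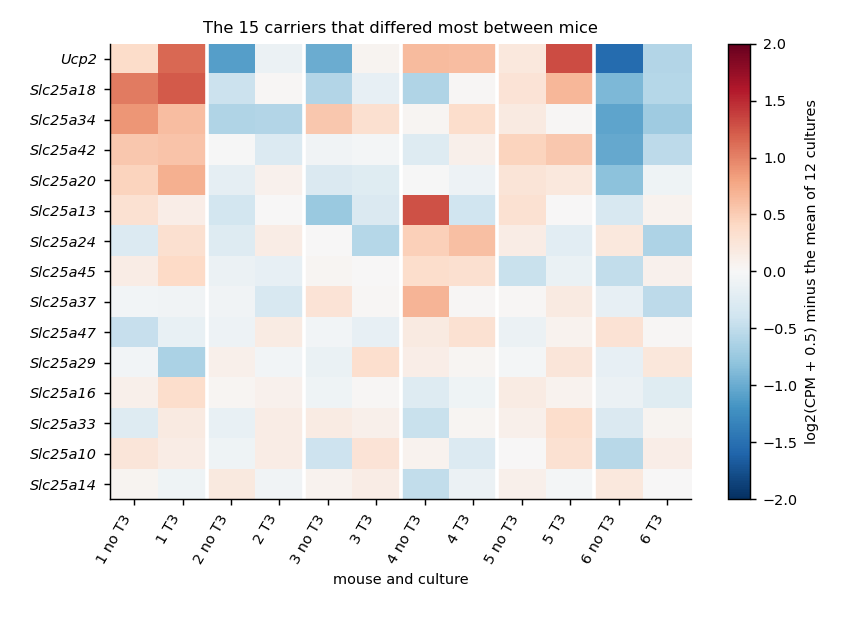
The 15 carriers with the largest spread between mice, as log2(CPM + 0.5) minus the mean of the 12 cultures (red above, blue below), with the no-T3 and T3 cultures of each mouse side by side. Ucp2, Slc25a18, Slc25a42 and Slc25a20 are red in mouse 1 and blue in the no-T3 culture of mouse 6, and Slc25a13 is dark red only in the no-T3 culture of mouse 4.

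Enzymes and channels that work beside the carriers were followed as well. Over 11 lists with 212 tested genes, 11 rose and 1 fell (5.66%, against the 5.52% of all genes). With no mouse block Gls2 was the one gene of these 12 whose call remained. None of the 23 tested genes for outer-membrane channels and protein import, 23 for carnitine and fatty acid oxidation, 20 for ATP synthase and creatine kinase, or 16 for coenzyme A, thiamine, NAD and flavin passed with limma. At an unadjusted p under 0.05 these lists held 2, 4, 5 and 1 genes, all higher with T3. The ATP synthase and creatine kinase list had 1 gene called higher with edgeR, 1 with limma-voom and 3 without mouse 1, while the other 3 had no call in any of the 17 alternatives. The medians of these lists, 0.053, 0.074, 0.076 and 0.057, stood beside 0.070 for the carriers.

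Of 7 enzymes of the malate-aspartate and glycerol phosphate shuttles 2 rose, both of the malate-aspartate shuttle. They were the cytosolic Mdh1 (log2 change 0.18, adjusted p = 0.0326) and Got1 (0.24, adjusted p = 0.0109), both in 6 of 6 mice. Their mitochondrial counterparts Mdh2 (0.12) and Got2 (0.075) did not pass. The calls were lost without mouse 1, 2, 3 or 6 for Mdh1 and without mouse 3 for Got1. Of 15 enzymes of glutamine, glutamate, ornithine and proline, Gls2 rose, a mitochondrial glutaminase whose product glutamate Slc25a18 and Slc25a22 carry (1.22, adjusted p = 1.49e-05). Arg2 rose as well, a mitochondrial arginase that makes ornithine (0.50, adjusted p = 0.00247). Pcx, the pyruvate carboxylase that refills the citrate cycle, was the called gene among 26 of that cycle (0.55, adjusted p = 0.00761).

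Of the 26 genes grouped here under other inner-membrane transport, 3 rose and 1 fell. Sfxn5, a sideroflexin, rose by 0.28 on the log2 scale in 6 of 6 mice (adjusted p = 0.00789). Letm1, a cation exchanger, rose by 0.20 with an adjusted p of 0.0499 that was lost in 10 of 17 alternatives: without mouse 3, 4, 5 or 6, with DESeq2, with a pseudocount of 1, no filter, RLE scaling, no mouse block or no robust estimation. The sodium/calcium exchanger gene Slc8b1 rose by 0.75 (adjusted p = 0.0192) on as few as 4 reads, and its call was lost with edgeR (adjusted p = 0.0535), with DESeq2, with limma-voom and without mouse 3, 4 or 6. Micu2, a gatekeeper of the calcium uniporter, fell by 0.24 in 6 of 6 mice (adjusted p = 0.0180), a call lost without mouse 4, 5 or 6. Aldh1l1, a folate enzyme that also stands in the astrocyte list, rose by 0.31 (lost without mouse 4, 5 or 6). Alas1, the first enzyme of heme synthesis, rose by 0.20 (adjusted p = 0.0494). That call was lost in 11 of 17 alternatives: without any one of mice 1, 2, 3, 5 and 6, with DESeq2, with no filter, RLE scaling, scaling by total reads, no mouse block or no robust estimation. Ppargc1a, a coactivator of mitochondrial gene expression, rose by 0.25 (adjusted p = 0.0142, lost without mouse 6).

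**Figure D5:**
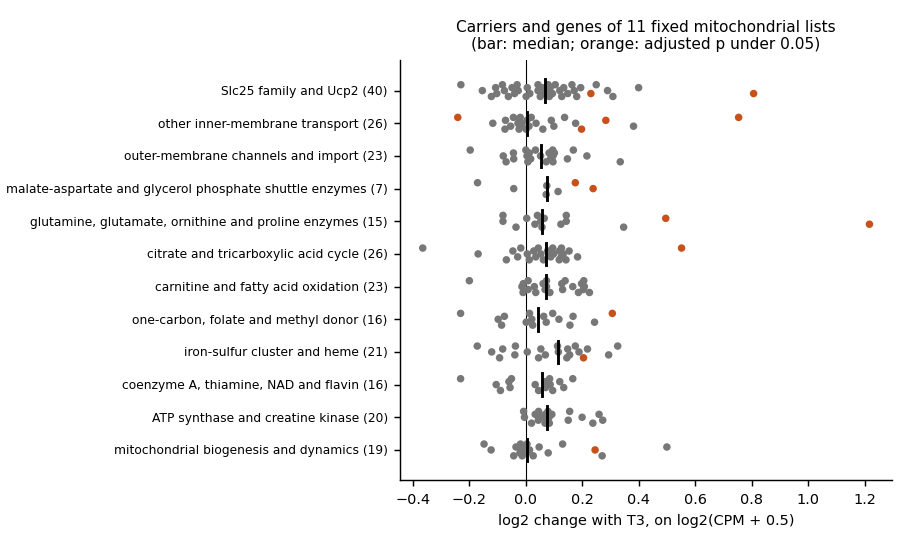
Log2 change with T3 of the 40 carriers and of the tested genes in 11 mitochondrial lists (points; number of genes in parentheses), with a bar at each median and called genes in orange. The carrier median is 0.070, and the medians of the other lists run from 0.004 to 0.11.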

How the data were processed

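RNA of 12 libraries, 6 per group, was sequenced with a kit that does not mark strand. The submitters' processing notes name the GRCm38 build, TopHat with Bowtie, HTSeq and edgeR, besides CASAVA and FastQC, with each version not given in the sources used. Each deposited table holds a normalized signal, reads per gene that the authors scaled with TMM to CPM, although the headers of the single-library files say counts. Every value was a whole multiple of what 1 read is worth (tolerance 0.01 reads, 100% of values), which gave back the reads. One read was worth 0.0911 to 0.186 CPM, and this sets the precision of low genes. Symbols were found for 14648 of 14801 identifiers.

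Log2(value + 0.5), a scale that understates changes of low genes, was fitted with limma 3.58.1 (R 4.3.3), using the trend of variance on level, its robust option and a block for each mouse. The filterByExpr rule of edgeR 4.0.16 left 13663 genes. Tests were two-sided. Alternatives changed the pseudocount, filter, scaling, block, robust step or tool (edgeR, limma-voom and DESeq2 1.42.0 on recovered reads) or left out a mouse. The fit was also run on simulated counts that held no differences between mice, so that run did not test the pairing. Per the series' design each fetus gave both cultures, and deviations from the group means correlated between 0.237 and 0.638 within the 6 pairs, each mouse matching its own partner best. Positions, exon lengths, overlaps and shared stretches come from GENCODE M21 on GRCm38. Any carrier could be named, as could called genes of the lists and their markers. Mdh2, Got2 and the pseudogenes were named after their values were seen. Members and lists were chosen with earlier results of these data known. One carrier is counted in the totals but is not reported here by name.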

Additional observations from a re-analysis of the deposited data

Results flagged for a closer look

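In 80 groups of 6 cultures, 2 for each carrier, 4 had a highest or lowest value whose gap to the next exceeded Dixon's critical value, and chance gives about 1 in 20 such groups. All 4 lay in mouse 4. Without T3, Slc25a13 stood at 8.35 CPM against 1.69 to 4.05 in the other mice, Slc25a5 at 130.6 against 111.2 to 117.4, and Slc25a14 at 15.8 against 23.2 to 25.9. With T3, Slc25a10 stood at 8.24 against 11.2 to 12.6. The no-T3 library of this mouse also held the markers of muscle, heart and connective tissue, whose part in these values was not tested.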

How the results depend on the processing

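Slc25a5 was called in all 17 alternatives (log2 change 0.21 to 0.26, adjusted p 0.00555 to 0.0409). Ucp2 was called in 16 of 17 (0.75 to 0.97) and lost its call with no replicate block (adjusted p = 0.612), where 1 carrier was called higher, and 125 genes higher and 53 lower among all tested. Count of all genes past the threshold, higher, ran from 304 to 530 when 1 mouse was left out, and the count lower from 154 to 330, with 304 and 154 without mouse 3 and 191 lower without mouse 5. Leaving out 1 mouse gave 2 to 3 carriers higher and 0 lower, the additional one being Slc25a33 without mouse 3. No carrier was called lower in any of the 17 alternatives.

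The sign turned in 23 values of carriers that were not called. Slc25a27 was at -0.003 with RLE scaling, -0.004 with edgeR, -0.005 with DESeq2 and -0.006 with limma-voom. Slc25a34 was at -0.005 with a pseudocount of 1, -0.054 with edgeR and -0.060 with limma-voom. The others came from leaving out 1 mouse, where the log2 difference ran from -0.056 to 0.015 for Slc25a1, -0.010 to 0.029 for Slc25a11, -0.275 to 0.15 for Slc25a13, -0.243 to 0.041 for Slc25a24 and -0.023 to 0.032 for Slc25a27. It ran from -0.032 to 0.178 for Slc25a29, -0.034 to 0.112 for Slc25a30, -0.071 to 0.017 for Slc25a32, -0.062 to 0.060 for Slc25a34 and -0.071 to 0.028 for Slc25a46. The cause was not tested. The stricter filter left 38 carriers. Depth limits the carriers with few reads: the floor of 3 reads lay between 0.273 and 0.557 CPM.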
